A study of Homo sapiens with 24 samples.

Results

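The comparison is of HK-2 cells given TGF-β1 together with the compound BAY 60-2770 against HK-2 cells given TGF-β1 alone, across all expressed genes. HK-2 is an immortalised human proximal tubular epithelial cell line. The libraries were taken by their labels: 5 carried TGF-β1 with the soluble guanylate cyclase activator and 5 carried TGF-β1, so the comparison used 10 of the 24 libraries of the series. BAY 60-2770, called BAY here, activates soluble guanylate cyclase. All cells were serum-deprived overnight and then kept for 24 h in normoxia, with TGF-β1 at 2 ng/mL in both groups. The BAY dose in the labels is 1 mM. That unit is doubtful, since the same label gives a final solvent share of 0.0001% DMSO, so the effects belong to an uncertain dose. Reference values come from normoxic cells with BAY and no TGF-β1 (3 libraries) and from normoxic cells with the solvents of the substances (5 libraries), and in places from hypoxic cells with BAY or solvent (3 libraries each, 0.3% oxygen). All groups are cultures of 1 cell line. Replicates are called biological in the labels, with nothing on how they were separated, and each p-value therefore refers to variation among cultures of HK-2 only.

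Soluble guanylate cyclase is the receptor for nitric oxide and makes cyclic GMP, which acts through cyclic GMP-dependent kinases, through ion channels and by changing the breakdown of cyclic AMP by phosphodiesterases. Activators of the BAY class drive the enzyme when its haem group is oxidised or missing. TGF-β1 is the cytokine most studied in kidney fibrosis: through SMAD proteins it induces matrix genes and draws tubular epithelial cells away from their epithelial programme. The comparison asks which transcripts differ when the cyclase is activated in cells that are exposed to TGF-β1.

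The values are estimated counts per gene from poly(A) RNA-seq. Library totals ran from 87391989 to 105571250 counts with TGF-β1 + BAY and from 88701836 to 101311288 with TGF-β1. At this depth the spread between libraries, not counting, limits all but the lowest genes. Transcripts of the mitochondrial genome took 5.34% ± 0.326 of counts with TGF-β1 + BAY and 5.20% ± 0.215 with TGF-β1 (SD, n = 5 each). Within both groups the libraries fell into the same 2 subsets. Replicates 1 and 2 stood apart from replicates 3 to 5 on the first principal component of the deviations from the group means, which held 56.6% of the variance over 11004 genes. Solvent libraries 1, 2 and 5 fell with the first subset and solvent libraries 3 and 4 with the second. The 3 BAY libraries lay close together on this component (1.34, -0.647 and -0.691). Deviations from a group's own mean cannot show whether all 3 belong to 1 subset. Effects of BAY and of subset can therefore not be told apart fully where BAY is set against solvent. The labels give no cause for the split. Both TGF-β1 groups hold both subsets in the same numbers, and values within each subset are given below for the main genes.

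The label of the cells was checked against 27 proximal tubule genes, of which 22 were abundant enough to test. PAX8, a transcription factor of kidney epithelium, stood at 232 CPM (counts scaled to library size) with TGF-β1 + BAY and 216 CPM with TGF-β1. The brush border peptidase gene DPP4 was at 190 and 375 CPM. LRP2, which encodes the endocytic receptor megalin, was nearly absent at 0.0175 and 0.0131 CPM, and SLC34A1, the sodium-phosphate cotransporter gene, was at 0.217 and 0.197 CPM. Transcripts of these transport genes were thus at or near 0 in both groups, although the cells are labelled as proximal tubular. In bulk RNA a lower level in every cell and a smaller number of expressing cells cannot be told apart.

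Adding BAY to TGF-β1 changed 6386 of 21639 tested genes (29.5%) in edgeR's quasi-likelihood test at a Benjamini-Hochberg adjusted p below 0.05. Of these, 3012 were higher (13.9% of tested genes) and 3374 were lower (15.6%). At least 2-fold changes were called for 627 genes (2.9%), 365 higher (1.69%) and 262 lower (1.21%). For 4790 genes (22.1%) all 5 libraries of one group lay outside the range of the other 5. Taken alone, the first subset gave 6555 calls and the second 7267, and 4874 and 5456 of these were genes called over all libraries in the same direction. The words rose and fell below are used for called genes, and each adjusted p is from the edgeR test. Counts over gene lists are descriptions with no test, to be read beside the 13.9% of all tested genes that were called higher and the 15.6% called lower.

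**Figure D1:**
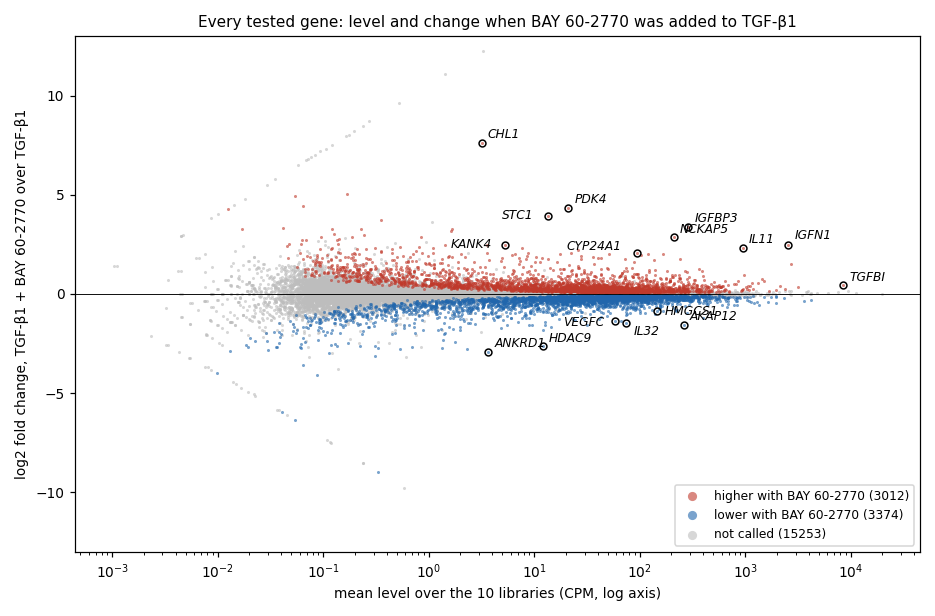
Each point is 1 tested gene; the x axis is the mean level over the 10 libraries in CPM (log axis) and the y axis the log2 fold change, TGF-β1 + BAY over TGF-β1. Red genes were called higher (3012), blue genes lower (3374) and grey genes were not called (15253); circled genes are named in the text, with CHL1 at 7.63 and ANKRD1 at -2.92.

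Secreted regulators of the insulin-like growth factor (IGF) axis were among the largest rises. IGFBP3 encodes the main IGF carrier of plasma, STC1 a secreted glycoprotein hormone that inhibits the protease PAPPA, and PAPPA itself cleaves IGF binding proteins. IGFBP3 (chr7:45912245-45921874, GRCh38) had 619, 619, 470, 497 and 429 CPM in the TGF-β1 + BAY libraries, against 55.9, 56.7, 45.9, 47.6 and 45.8 CPM in the TGF-β1 libraries. The lowest TGF-β1 + BAY library was far above the highest TGF-β1 library, and replicates 1 and 2 were the highest in both groups. The log2 fold change was 3.39 ± 0.10 (SE, adjusted p = 5.24e-13), with 3.45 in the first subset and 3.32 in the second. STC1 had 26.9, 26.7, 23.5, 26.6 and 24.0 CPM with TGF-β1 + BAY, against 2.45, 2.11, 1.27, 1.20 and 1.25 CPM with TGF-β1. The groups again did not overlap, and the log2 fold change was 3.94 ± 0.20 (adjusted p = 8.5e-11), with 3.54 and 4.32 in the subsets.

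Of the 17 tested genes of IGF binding proteins, IGF receptors and stanniocalcins, 9 rose, 2 fell and 6 were not called, with a median log2 fold change of 0.43 beside 0.00597 over all genes tested. PAPPA averaged 370 CPM with TGF-β1 + BAY and 110 CPM with TGF-β1 (log2 1.75 ± 0.07). The receptor gene IGF1R rose by 0.82 ± 0.03 on the log2 scale, and IRS1, an adaptor of the insulin and IGF receptors, by 0.73 ± 0.08. IGFBP4 rose by 0.86 ± 0.19. IGFBP1 rose as well (3.28 ± 0.48), at means of only 0.415 and 0.041 CPM. IGFBP5 had 0.182 and 0.0559 CPM, and its call (1.69, adjusted p = 0.0493) was lost in 15 of 19 alternative analyses, with adjusted p-values up to 0.196. IGFBP6 and the scavenging receptor gene IGF2R fell by 0.17 and 0.16. The second stanniocalcin, STC2, stood at 43.6 CPM with TGF-β1 + BAY and 42.5 CPM with TGF-β1 and was not called (0.04 ± 0.03). IRS2 was not called (0.43 ± 0.25, adjusted p = 0.219), but it was with the replicate number as a block (0.42, adjusted p = 0.00152). IGFBP7 likewise was not called at 0.20 ± 0.09, and was called under the block at 0.21 (adjusted p = 0.0157).

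**Figure D2:**
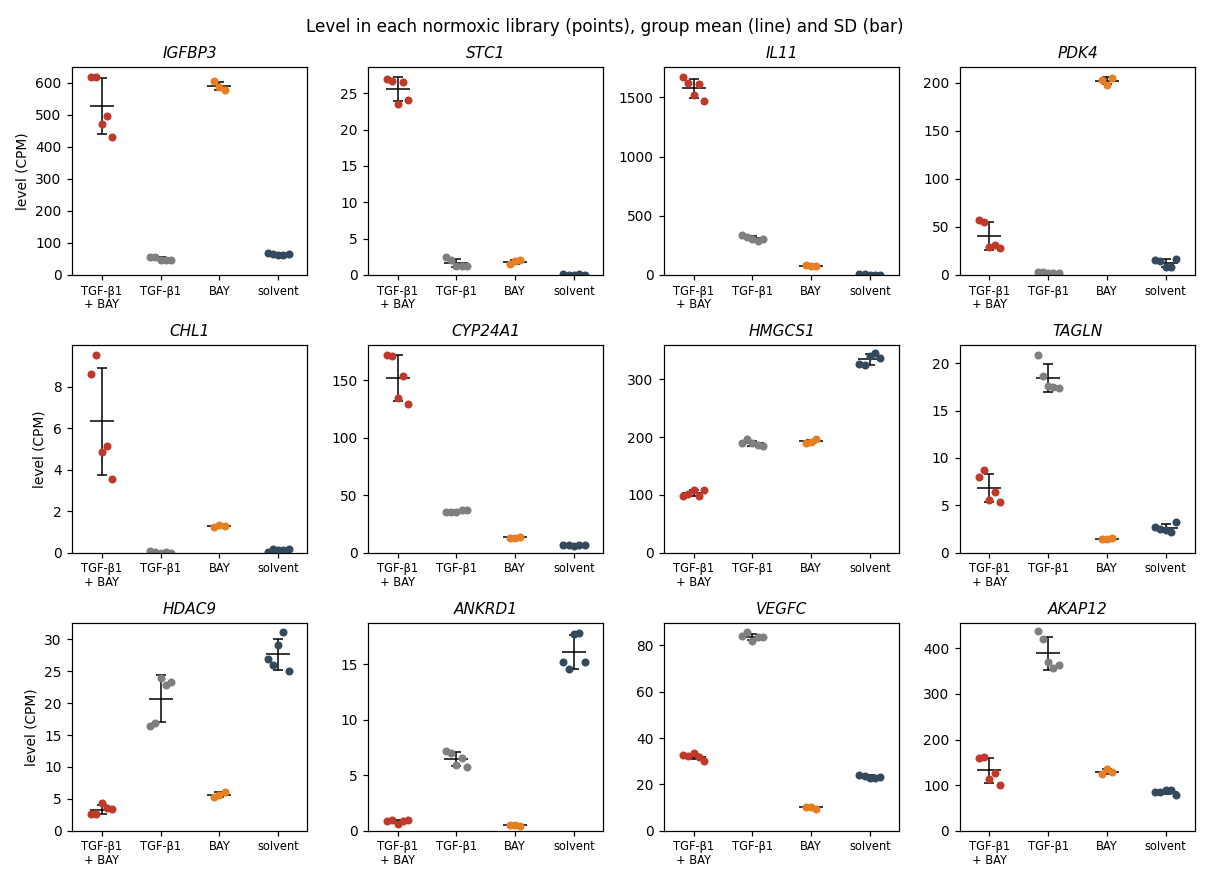
Level in CPM (y axis, starting at 0) of 12 genes in every normoxic library; points are libraries, lines are group means and bars SDs (n = 5, 5, 3 and 5). IGFBP3, STC1, IL11, PDK4, CHL1 and CYP24A1 are higher in all 5 TGF-β1 + BAY libraries than in any TGF-β1 library, and HMGCS1, TAGLN, HDAC9, ANKRD1, VEGFC and AKAP12 are lower.

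IL11, a cytokine of the IL-6 family that acts downstream of TGF-β1 in fibrosis, had the smallest p of all rises. It stood at 1670, 1620, 1520, 1610 and 1470 CPM with TGF-β1 + BAY, against 338, 323, 301, 290 and 306 CPM with TGF-β1, without overlap. The log2 fold change was 2.34 ± 0.06 (adjusted p = 2.18e-14). TGF-β1 against solvent, which shares the TGF-β1 libraries, called 62% of tested genes. IL11 was among those higher, at 2.35 to 3.12 CPM in the solvent libraries. CYP24A1, the enzyme that inactivates vitamin D, rose by 2.07 ± 0.07 (adjusted p = 5.67e-13), and ACO1, the cytosolic aconitase that also acts as an iron sensor, by 0.76 ± 0.03 (adjusted p = 6.9e-13).

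Among the 12 largest rises of genes with a standard symbol, at least 5 CPM and no overlap between the groups, the cell adhesion gene CHL1 came first. CHL1 had 8.60, 9.51, 4.87, 5.13 and 3.56 CPM with TGF-β1 + BAY, against 0.0649, 0.0419, 0.0115, 0.0233 and 0.0106 CPM with TGF-β1. Its TGF-β1 libraries held only a few reads each, so the size of the log2 fold change (7.63 ± 0.47, adjusted p = 1.86e-09) is imprecise. PDK4, the kinase that shuts off pyruvate dehydrogenase, had 56.7, 55.0, 29.4, 30.9 and 28.1 CPM with TGF-β1 + BAY, against 2.57, 2.46, 1.49, 1.68 and 1.55 CPM with TGF-β1. Replicates 1 and 2 were highest in both groups, and the groups did not overlap (log2 4.35 ± 0.31, adjusted p = 3.47e-08). The others were NCKAP5 (2.85 ± 0.24), KANK4, a regulator of the actin skeleton (2.47 ± 0.11), IGFN1 (2.46 ± 0.30), CCN5, a matricellular protein of the CCN family (2.45 ± 0.16), ANOS1, which encodes the matrix protein anosmin (2.22 ± 0.13), BEAN1 (2.09 ± 0.14) and CEMIP, which degrades hyaluronan (2.08 ± 0.26).

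The 12 largest falls under the same rule began with ANKRD1, a nuclear ankyrin repeat protein and classic target of YAP. ANKRD1 had 0.881, 0.978, 0.620, 0.853 and 0.921 CPM with TGF-β1 + BAY, against 7.17, 6.98, 5.90, 6.56 and 5.73 CPM with TGF-β1. The groups did not overlap (log2 -2.92 ± 0.11, adjusted p = 1.82e-12). HDAC9, a class IIa histone deacetylase (chr7:18086949-19002416), had 2.55, 2.65, 4.34, 3.57 and 3.45 CPM with TGF-β1 + BAY, against 16.5, 16.9, 24.0, 22.9 and 23.3 CPM with TGF-β1. Here replicates 1 and 2 were the lowest of both groups, and all TGF-β1 + BAY libraries lay below all TGF-β1 libraries (log2 -2.65 ± 0.14, adjusted p = 3.39e-10). VEGFC, the growth factor of lymphatic vessels, had the smallest p of all genes: 32.5, 32.2, 33.5, 31.7 and 30.2 CPM with TGF-β1 + BAY, against 83.9, 85.7, 82.0, 83.4 and 83.4 CPM with TGF-β1. Its spread within each group was small beside the gap (log2 -1.39 ± 0.03, adjusted p = 3.01e-15).

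AKAP12, a scaffold of protein kinase A, had 160, 162, 113, 126 and 101 CPM with TGF-β1 + BAY, against 437, 420, 371, 357 and 363 CPM with TGF-β1, without overlap (log2 -1.56 ± 0.11). The other large falls were the phagocytic receptor gene MEGF10 (-1.82 ± 0.14), DACT1, a modulator of Wnt and TGF-β signalling (-1.70 ± 0.15), the annexin ANXA3 (-1.68 ± 0.07), BIRC3, an inhibitor of apoptosis in the NF-κB pathway (-1.58 ± 0.09), the organic anion transporter gene SLCO4C1 (-1.58 ± 0.08), the gelatinase gene MMP9 (-1.55 ± 0.18), IL4I1 (-1.54 ± 0.07), the cytokine gene IL32 (-1.46 ± 0.07) and the synaptotagmin SYT12 (-1.44 ± 0.19). IL4I1 shares 336 exon bases with NUP62 on the same strand in GENCODE 29, so its reads may be divided between them. CHL1, HMGCS1, MMP9, TAGLN and CREM overlap genes on the other strand, and since it is not given whether counting used strand, reads of such neighbours may be included. Of the smallest p-values among falls, the lysosomal ATPase gene ATP13A2 (-0.69 ± 0.03) and RRAGD, a Rag GTPase that links lysosomes to mTORC1 (-0.79 ± 0.03), were smaller changes with little spread.

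Genes of cholesterol synthesis fell together. Of 20 tested enzymes 17 fell, 1 rose and 2 were not called, and the median log2 fold change was -0.50 beside 0.00597 over all genes; lower calls made up 15.6% of all tested genes. HMGCS1, which makes HMG-CoA (chr5:43289395-43313512), had 98.8, 101, 108, 97.5 and 108 CPM with TGF-β1 + BAY, against 190, 196, 189, 187 and 185 CPM with TGF-β1. All TGF-β1 + BAY libraries lay below all TGF-β1 libraries (log2 -0.88 ± 0.03, adjusted p = 1.46e-12), and the first subset gave -0.96 and the second -0.84. For 16 enzymes the libraries of the groups did not overlap on the lower side. They ran through the pathway, with ACAT2 at -0.69 ± 0.03, the mevalonate kinase gene MVK at -0.77 ± 0.05, the farnesyl diphosphate synthase gene FDPS at -0.44 ± 0.03, the squalene epoxidase gene SQLE at -0.47 ± 0.03, LSS, which closes the sterol ring, at -0.57 ± 0.03, MSMO1 at -0.67 ± 0.05 and DHCR7 at -0.65 ± 0.03. PMVK fell by 0.20 ± 0.06, a call lost in the second subset (adjusted p = 0.234). GGPS1 and FDFT1 were not called.

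Among 15 tested genes of sterol control, uptake and efflux, 8 fell, 3 rose and 4 were not called (median -0.08). The sterol sensor gene INSIG1 fell by 0.48 ± 0.07, NPC1 by 0.34 ± 0.03, the esterifying enzyme gene SOAT1 by 0.27 ± 0.03, SREBF2, the master transcription factor of sterol genes, by 0.23 ± 0.04 and SREBF1 by 0.17 ± 0.05. The cholesterol exporter gene ABCA1 rose by 0.19 ± 0.06, a call that 5 of 19 alternatives did not keep (adjusted p up to 0.147).

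**Figure D3:**
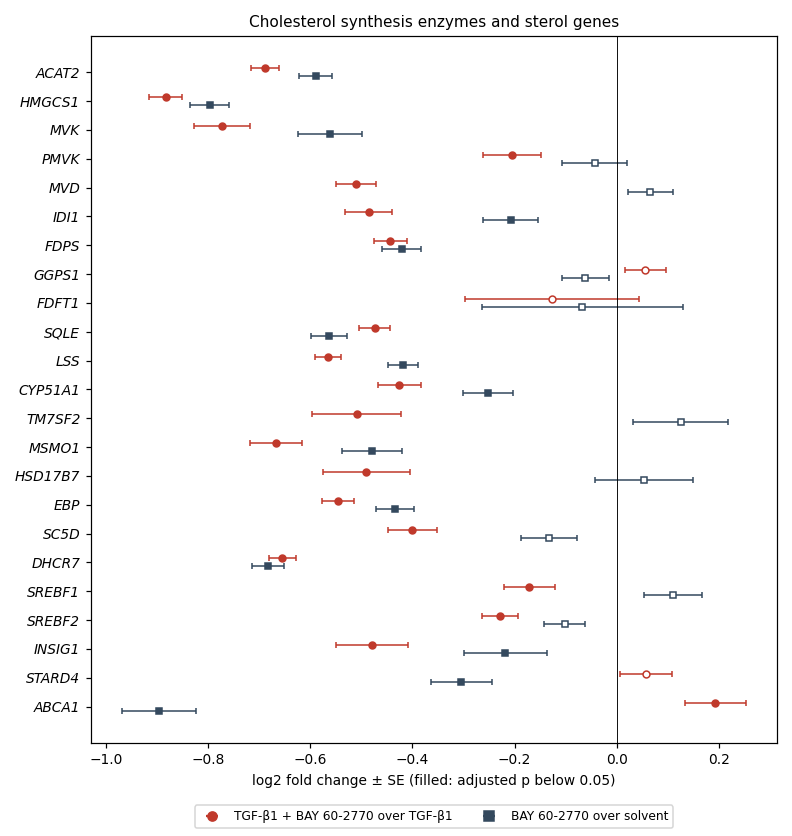
Log2 fold change ± SE (x axis) of 18 cholesterol synthesis enzymes, in pathway order from the top, and of 5 sterol genes below; red circles are TGF-β1 + BAY over TGF-β1 and dark squares BAY over solvent, filled where called. With TGF-β1 all enzymes shown but GGPS1 and FDFT1 were called lower, with HMGCS1 at -0.88.

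Other lipid genes split. Of 15 tested genes of fatty acid synthesis, 7 fell, 4 rose and 4 were not called (median -0.12). The desaturase gene SCD fell by 0.53 ± 0.04, the acetyl-CoA synthetase gene ACSS2 by 0.60 ± 0.05 and the fatty acid synthase gene FASN, chosen after its values were seen, by 0.52 ± 0.04. ACLY, the enzyme that makes cytosolic acetyl-CoA, also chosen after its values were seen, averaged 1560 CPM with TGF-β1 + BAY and 1080 CPM with TGF-β1 (log2 0.53 ± 0.03). Of 14 tested genes of fatty acid use, 5 rose, 3 fell and 6 were not called (median -0.02). PDK4 led them, the lipase gene PNPLA2 rose by 0.57 ± 0.04, and ANGPTL4, an inhibitor of lipoprotein lipase, rose by 1.24 ± 0.45 (adjusted p = 0.0487). The libraries of ANGPTL4 overlapped over both subsets and it was not called in 9 of 19 alternatives, while it rose by 1.11 and 1.46 within the subsets (adjusted p = 8.38e-06 and 0.00131) and by 1.32 under the replicate block (adjusted p = 0.000162).

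Cyclic AMP response element binding protein (CREB) is phosphorylated by cyclic nucleotide-dependent kinases and binds the cyclic AMP response element in promoters. Of 23 CREB-responsive and immediate-early genes, 11 rose, 2 fell and 10 were not called, with a median log2 fold change of 0.41. FOSB, an AP-1 subunit, had 114, 109, 57.7, 67.2 and 60.6 CPM with TGF-β1 + BAY, against 26.5, 24.1, 17.8, 16.5 and 16.3 CPM with TGF-β1. DUSP1, the phosphatase that switches off MAP kinases, had 189, 186, 145, 159 and 145 CPM with TGF-β1 + BAY, against 46.3, 44.6, 40.8, 40.8 and 42.0 CPM with TGF-β1. Neither gene overlapped between groups, and the log2 fold changes were 2.01 ± 0.30 and 1.94 ± 0.20. The nuclear receptor gene NR4A3 rose by 1.47 ± 0.15. CREM, a close relative of CREB, was named after its values were seen: it averaged 38.1 CPM with TGF-β1 + BAY and 14.5 CPM with TGF-β1 (1.40 ± 0.05, adjusted p = 1.82e-12).

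To set these changes beside the sequence, promoter windows of 300 bases (250 before to 50 after the start, from RefSeq on GRCh38.p14) were searched on both strands for the cyclic AMP response element TGACGTCA. The element lay in 1.85% of 35114 windows and in 2.57% of the windows of tested genes. Among genes at least 2-fold higher it lay in 10 of 213 windows (4.69%), and among genes at least 2-fold lower in 1 of 145 (0.69%). Its shorter core TGACG, which every full element contains, lay in 28.6% and 15.2% of those windows and in 30.3% of the windows of tested genes. A match describes letters in the window, not a bound site. The windows below belong to 5 genes that rose and 1 that fell, chosen after their values were seen because they hold the full element, which is in capitals. They are chr5:172771146-172771445, minus strand for DUSP1, chr7:101165520-101165819, minus strand for VGF, chr4:74444886-74445185, plus strand for AREG, chr6:135851451-135851750, plus strand for PDE7B, chr19:10416523-10416822, plus strand for PDE4A and chr16:3065153-3065452, plus strand for IL32.
DUSP1: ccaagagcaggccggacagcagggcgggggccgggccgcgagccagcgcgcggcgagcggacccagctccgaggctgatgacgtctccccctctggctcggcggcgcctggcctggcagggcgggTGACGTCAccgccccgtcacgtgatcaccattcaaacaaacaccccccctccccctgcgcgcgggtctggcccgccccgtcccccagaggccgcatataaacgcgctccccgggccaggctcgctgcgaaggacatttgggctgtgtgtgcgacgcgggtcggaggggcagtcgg
VGF: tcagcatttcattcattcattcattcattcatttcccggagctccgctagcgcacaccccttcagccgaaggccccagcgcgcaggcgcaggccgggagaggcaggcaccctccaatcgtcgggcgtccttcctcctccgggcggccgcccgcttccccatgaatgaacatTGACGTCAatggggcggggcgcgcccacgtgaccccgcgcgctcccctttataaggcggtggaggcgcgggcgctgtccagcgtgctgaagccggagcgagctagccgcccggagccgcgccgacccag
AREG: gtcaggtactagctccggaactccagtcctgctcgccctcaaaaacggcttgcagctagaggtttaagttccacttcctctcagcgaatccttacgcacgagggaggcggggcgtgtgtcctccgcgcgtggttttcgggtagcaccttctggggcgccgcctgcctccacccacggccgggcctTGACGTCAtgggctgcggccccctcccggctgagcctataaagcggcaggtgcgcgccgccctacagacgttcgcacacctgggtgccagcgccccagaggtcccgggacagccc
PDE7B: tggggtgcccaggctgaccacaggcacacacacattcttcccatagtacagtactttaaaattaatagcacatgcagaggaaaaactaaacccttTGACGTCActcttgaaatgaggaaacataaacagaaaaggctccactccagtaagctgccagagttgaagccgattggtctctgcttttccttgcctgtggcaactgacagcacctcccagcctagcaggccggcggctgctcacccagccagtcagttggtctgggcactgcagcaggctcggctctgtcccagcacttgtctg
PDE4A: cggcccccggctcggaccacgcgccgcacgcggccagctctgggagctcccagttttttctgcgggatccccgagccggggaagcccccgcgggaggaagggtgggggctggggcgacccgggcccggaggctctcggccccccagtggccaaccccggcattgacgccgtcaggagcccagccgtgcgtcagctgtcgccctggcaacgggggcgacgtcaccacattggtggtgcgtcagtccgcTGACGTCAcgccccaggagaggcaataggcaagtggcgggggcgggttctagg
IL32: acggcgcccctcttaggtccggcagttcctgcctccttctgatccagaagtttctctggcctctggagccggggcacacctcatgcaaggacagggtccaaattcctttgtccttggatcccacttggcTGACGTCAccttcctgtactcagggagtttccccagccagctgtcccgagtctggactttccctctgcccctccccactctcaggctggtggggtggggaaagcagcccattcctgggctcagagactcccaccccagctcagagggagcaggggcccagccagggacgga

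VGF, a secreted neuropeptide precursor, had 165, 164, 104, 117 and 113 CPM with TGF-β1 + BAY, against 50.7, 53.2, 39.0, 40.1 and 35.0 CPM with TGF-β1. AREG, the epidermal growth factor receptor ligand amphiregulin, had 513, 500, 530, 512 and 490 CPM with TGF-β1 + BAY, against 201, 207, 222, 213 and 225 CPM with TGF-β1. Both rose without overlap between groups, by 1.60 ± 0.15 and 1.25 ± 0.05 on the log2 scale. IL32 holds the same element in its window and fell, with 43.9, 44.9, 36.2, 36.3 and 38.7 CPM with TGF-β1 + BAY, against 122, 117, 105, 102 and 103 CPM with TGF-β1. The windows of IGFBP3, IL11, HMGCS1 and CREM held neither the full element nor the core. Of 16 windows of cholesterol synthesis enzymes, 9 held the core (56.2%) and none held the sterol regulatory element searched as TCACNCCAC, which lay in 1.13% of all windows.

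Some genes that make and break cyclic nucleotides were called, in both directions. Of 8 tested genes of cyclic GMP makers and receptors, 4 fell and 4 were not called (median -0.34). GUCY1A1 and GUCY1B1 encode the α and β subunits of the common form of the drug target. GUCY1A1 averaged 8.15 CPM with TGF-β1 + BAY and 12.4 CPM with TGF-β1 (log2 -0.60 ± 0.05, adjusted p = 3.49e-08). GUCY1B1 averaged 56.0 and 58.6 CPM in the same order and was not called (-0.07 ± 0.03, adjusted p = 0.0651); DESeq2 called it at -0.08 (adjusted p = 0.0266). GUCY1A2, the other α subunit, was at 23.4 and 23.0 CPM and not called. NPR1, the receptor for atrial natriuretic peptide and itself a guanylate cyclase, had 19.9, 20.8, 17.6, 18.7 and 21.1 CPM with TGF-β1 + BAY, against 42.8, 45.3, 32.5, 34.1 and 31.7 CPM with TGF-β1. It fell without overlap (-0.93 ± 0.09). NOS3 (-0.82 ± 0.19) and NPR2 (-0.67 ± 0.22) fell at means under 1 CPM, and the call of NPR2 was lost in 9 of 19 alternatives.

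Of 10 tested cyclic GMP effectors, 2 rose, 1 fell and 7 were not called, shares near those of all tested genes (13.9% higher and 15.6% lower). The potassium channel gene KCNMA1 rose by 0.27 ± 0.06, and VASP, a substrate of the cyclic GMP kinases, fell by 0.25 ± 0.07. The kinase genes PRKG1 and PRKG2 stood at 0.161 and 0.591 CPM with TGF-β1 + BAY and at 0.222 and 0.572 CPM with TGF-β1, and neither was called. Of 16 tested phosphodiesterases, 6 rose, 2 fell and 8 were not called (median 0.10). PDE3A, whose breakdown of cyclic AMP is inhibited by cyclic GMP, had 4.55, 3.95, 2.22, 2.16 and 2.13 CPM with TGF-β1 + BAY, against 0.476, 0.346, 0.300, 0.233 and 0.192 CPM with TGF-β1. It was higher in all 5 libraries (log2 3.27 ± 0.28, adjusted p = 7.96e-08). The cyclic AMP phosphodiesterase genes PDE7B (1.24 ± 0.24), PDE4A (0.57 ± 0.06) and PDE8A (0.50 ± 0.05) rose, and PDE4C fell by 0.35 ± 0.09. The calls of PDE7B and PDE4C were lost in the second subset alone, at 0.90 (adjusted p = 0.0713) and -0.26 (adjusted p = 0.0785). PDE5A, specific for cyclic GMP, rose by 0.43 ± 0.11 with overlapping libraries, and was 0.17 in the first subset alone (adjusted p = 0.341). PDE4D was not called (0.38 ± 0.15, adjusted p = 0.0608) and was called under the replicate block at 0.38 (adjusted p = 0.0332).

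Class IIa histone deacetylases bind MEF2 transcription factors and repress their targets. Beside the fall of HDAC9, HDAC5 fell by 0.51 ± 0.06, HDAC7 by 0.14 ± 0.03, MEF2A by 0.21 ± 0.03 and MEF2C by 0.35 ± 0.05. HDAC4 went the other way: it had 35.3, 34.0, 27.3, 29.3 and 26.3 CPM with TGF-β1 + BAY, against 18.5, 16.6, 13.5, 12.7 and 13.7 CPM with TGF-β1. It rose without overlap (1.02 ± 0.11, adjusted p = 9.16e-07), and so the list counted 5 falls, 1 rise and 1 gene not called (median -0.23).

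Genes of the TGF-β pathway went in both directions. Of 25 tested TGF-β and SMAD target genes 8 rose, 6 fell and 11 were not called, with a median of 0.06, where 13.9% and 15.6% of all tested genes were called higher and lower. The summed level of the targets was 18700 to 20200 CPM with TGF-β1 + BAY, against 15800 to 16000 CPM with TGF-β1, without overlap, and TGFBI and IL11 made the largest additions to it. IL11 was the largest riser. TGFBI, a secreted matrix protein named after its values were seen, had 9450, 9650, 10100, 10100 and 9440 CPM with TGF-β1 + BAY, against 6640, 6680, 7550, 7630 and 7690 CPM with TGF-β1, and rose by 0.43 ± 0.06. CCN2, the connective tissue growth factor, had 26.9, 27.0, 7.72, 8.70 and 8.81 CPM with TGF-β1 + BAY, against 82.4, 77.4, 26.7, 25.9 and 24.7 CPM with TGF-β1. It was lower with TGF-β1 + BAY in each of the 5 pairs of libraries with the same number. CCN2 fell by 1.58 ± 0.52 (adjusted p = 0.0312), by 1.58 in the first subset (adjusted p = 9.38e-11), by 1.62 in the second (adjusted p = 9.5e-12) and by 1.59 under the replicate block (adjusted p = 0.00468). The subsets stood at different levels in both groups, so the groups overlapped over all libraries, and the call was lost in 7 of 19 alternatives at fold changes of -1.58 to -1.29.

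Among 18 tested TGF-β ligands, receptors and latency proteins, 6 rose, 3 fell and 9 were not called, and their summed level was 2580 to 2710 CPM with TGF-β1 + BAY and 2200 to 2430 CPM with TGF-β1. INHBA, which encodes the activin A subunit, averaged 249 CPM with TGF-β1 + BAY and 113 CPM with TGF-β1 (1.14 ± 0.06). TGFB2 rose by 0.59 ± 0.05, TGFB1 was not called (-0.08 ± 0.05), and LRRC32, which tethers latent TGF-β to the cell surface, fell by 0.74 ± 0.17. Of 14 SMADs and feedback inhibitors 5 rose, 2 fell and 7 were not called, and their summed level was 2130 to 2200 CPM with TGF-β1 + BAY and 1860 to 1910 CPM with TGF-β1, mostly PMEPA1. PMEPA1 rose by 0.33 ± 0.04 and SKIL by 0.37 ± 0.03, the ubiquitin ligase gene SMURF2 fell by 0.43 ± 0.04 and the pseudoreceptor gene BAMBI by 0.71 ± 0.06, while SMAD3 (0.0042 ± 0.07) and SMAD7 (0.06 ± 0.23) were not called. Of 14 genes of the BMP pathway and ID family 5 rose and 9 were not called, with ID1 at 0.86 ± 0.16 and BMP2 at 0.84 ± 0.09. INHBA, TGFB1, TGFB2, PMEPA1, SMAD3 and SMAD7 were named after their values were seen.

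Matrix genes went in both directions. Of 26 tested collagens and matrix proteins, 6 rose, 8 fell and 12 were not called (median 0.00323). COL1A1, named after its values were seen, had 204, 206, 186, 207 and 198 CPM with TGF-β1 + BAY, against 233, 225, 219, 220 and 225 CPM with TGF-β1. The groups did not overlap, and the fall was small (-0.17 ± 0.04). The matrix glycoprotein gene TNC, also chosen after its values were seen, fell by 0.68 ± 0.08, and THBS2 by 0.87 ± 0.09. The proteoglycan genes VCAN and DCN rose by 0.77 ± 0.09 and 1.58 ± 0.29, DCN at 1.40 CPM with TGF-β1 + BAY and 0.464 CPM with TGF-β1. Of 27 tested genes of matrix crosslinking and turnover 7 rose, 8 fell and 12 were not called. The stromelysin gene MMP10 had 205, 197, 186, 199 and 170 CPM with TGF-β1 + BAY, against 53.6, 58.2, 38.8, 40.3 and 41.6 CPM with TGF-β1. The collagen prolyl hydroxylase gene P4HA3 rose by 1.59 ± 0.10 and MMP10 by 2.04 ± 0.11, both without overlap. The collagenase genes MMP1 (0.94 ± 0.09) and MMP13 (-0.81 ± 0.18), chosen after their values were seen, moved in opposite directions.

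Of 18 tested mesenchymal and contractile genes 7 fell, 3 rose and 8 were not called (median -0.17), where 15.6% of all tested genes were lower and 13.9% higher. TAGLN, which encodes the actin-binding protein transgelin, had 7.97, 8.69, 5.57, 6.37 and 5.35 CPM with TGF-β1 + BAY, against 20.9, 18.6, 17.6, 17.5 and 17.4 CPM with TGF-β1. It was lower in all 5 libraries (-1.44 ± 0.12), and the myosin light chain gene MYL9 fell by 0.88 ± 0.04. ACTA2, smooth muscle actin, rose by 1.08 ± 0.18 at 3.53 CPM with TGF-β1 + BAY and 1.67 CPM with TGF-β1. Its exons overlap those of FAS on the other strand, FAS rose as well (1.11 ± 0.08), and whether counting used strand is not given. The transcription factor gene SNAI1, named after its values were seen, rose by 0.79 ± 0.14. Of 25 tested epithelial junction genes 12 fell, 6 rose and 7 were not called (median -0.24). CGN, the tight junction adaptor cingulin, fell by 1.07 ± 0.04, and CLDN16 by 1.28 ± 0.09. CDH1, E-cadherin, named after its values were seen, had 7.03, 6.63, 6.15, 6.67 and 5.73 CPM with TGF-β1 + BAY, against 4.56, 3.96, 3.98, 3.86 and 3.71 CPM with TGF-β1, and rose by 0.68 ± 0.06. For scale, CDH1 stood at 29 to 30.3 CPM in the solvent libraries.

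YAP and TEAD proteins drive genes of growth and attachment. Of 22 tested YAP and TEAD targets 9 fell, 5 rose and 8 were not called (median -0.10). IGFBP3, CCN5 and TGFB2 are among those that rose and ANKRD1, CCN2 and GADD45A among those that fell, GADD45A at -1.01 ± 0.30. Libraries of the groups overlapped for GADD45A over both subsets, and within the subsets it was -1.07 and -0.95 (adjusted p = 3.19e-09 and 5.12e-08). The promoter window of ANKRD1 (chr10:90921038-90921337, minus strand) is shown because ANKRD1 fell most, and it holds the TEAD letters GGAATG at 2 places, in capitals. These letters lay in 14% of all windows and 11.7% of those of tested genes, in 15.9% of those of genes at least 2-fold lower and in 10.8% of those of genes at least 2-fold higher.
ANKRD1: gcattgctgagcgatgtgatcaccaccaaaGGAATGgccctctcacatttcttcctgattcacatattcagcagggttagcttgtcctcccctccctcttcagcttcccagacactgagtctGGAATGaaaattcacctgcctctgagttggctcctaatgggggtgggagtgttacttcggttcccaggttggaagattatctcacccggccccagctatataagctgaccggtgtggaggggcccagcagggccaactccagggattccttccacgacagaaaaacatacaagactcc

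Of 31 tested NF-κB and inflammation genes 16 fell, 6 rose and 9 were not called (median -0.32), where 15.6% of all tested genes were lower and 13.9% higher. BIRC3 fell as given above, and CSF2 fell by 2.01 ± 0.41 at 0.0917 CPM with TGF-β1 + BAY and 0.378 CPM with TGF-β1. BCL3, an atypical IκB protein, rose by 1.48 ± 0.10, and the neutrophil chemokine gene CXCL8, named after its values were seen, by 0.30 ± 0.06. Of 21 tested interferon response genes 10 fell and 11 were not called (median -0.37). IFIT3 averaged 13.9 CPM with TGF-β1 + BAY and 35.1 CPM with TGF-β1 (-1.33 ± 0.08), IFIT2 fell by 1.27 ± 0.06 and the RNA sensor gene IFIH1 by 1.15 ± 0.15. Of 25 p53 targets 10 fell, 3 rose and 12 were not called (median -0.14), with the death receptor gene FAS higher and PLK2 lower (-0.60 ± 0.15).

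Of 23 mitosis genes 13 rose and 10 were not called (median 0.19). For this list and those of replication, metabolism and stress that follow, the shares over all tested genes were 13.9% higher and 15.6% lower. TOP2A, the mitotic topoisomerase, had 649, 644, 751, 716 and 729 CPM with TGF-β1 + BAY, against 487, 479, 548, 555 and 554 CPM with TGF-β1 (0.41 ± 0.05, no overlap). Of 26 genes of DNA replication 11 fell, 3 rose and 12 were not called (median -0.09), with MCM6 at -0.26 ± 0.02 and GINS2 at -0.25 ± 0.03. Of 15 glycolysis genes 6 fell, 2 rose and 7 were not called (median -0.16), with HK2 at -0.67 ± 0.12. Of 29 hypoxia-inducible factor targets 7 rose, 6 fell and 16 were not called; STC1 was the largest riser, and DDIT4 rose by 0.77 ± 0.12. Of 25 ATF4 and stress genes 9 fell, 2 rose and 14 were not called (median -0.16). The asparagine synthetase gene ASNS fell by 0.76 ± 0.07, while SLC7A11, the cystine importer, rose by 1.50 ± 0.07. Of 24 NRF2 targets 9 fell, 2 rose and 13 were not called (median -0.12), with HMOX1 at -0.93 ± 0.16.

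Of the 22 proximal tubule genes 6 fell, 2 rose and 14 were not called (median -0.14), and their summed level was 535 to 673 CPM with TGF-β1 + BAY and 761 to 886 CPM with TGF-β1. Most of this gap came from DPP4, while PAX8 stood slightly higher with TGF-β1 + BAY, as given above. DPP4 had 220, 221, 172, 166 and 170 CPM with TGF-β1 + BAY, against 386, 411, 348, 366 and 362 CPM with TGF-β1 (-0.98 ± 0.09, no overlap). GGT1 fell by 0.43 ± 0.09 and MME by 0.38 ± 0.05. Of 18 tubular injury genes 7 fell, 3 rose and 8 were not called, with the keratins KRT7 (-1.10 ± 0.08) and KRT19 (-0.96 ± 0.15) and the adhesion molecule VCAM1 (-0.71 ± 0.20) lower. Markers of other cell types were summed as a check. Fibroblast markers gave 264 to 285 CPM with TGF-β1 + BAY and 288 to 301 CPM with TGF-β1, mostly COL1A1 and LUM, while FAP and THY1 were below 0.5 CPM. Endothelial markers gave 33.6 to 39.3 and 31.5 to 41.9 CPM, nearly all from EGFL7. Immune markers gave 190 to 221 and 221 to 250 CPM, nearly all from CD68 and CD74, and podocyte markers 38.1 to 72.5 and 31.0 to 51.0 CPM, mostly SYNPO. Distal nephron markers gave 7.87 to 8.91 and 8.62 to 10.5 CPM. The defining markers PTPRC, CD3E, PECAM1, CDH5, NPHS1 and UMOD were too low to test.

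**Figure D4:**
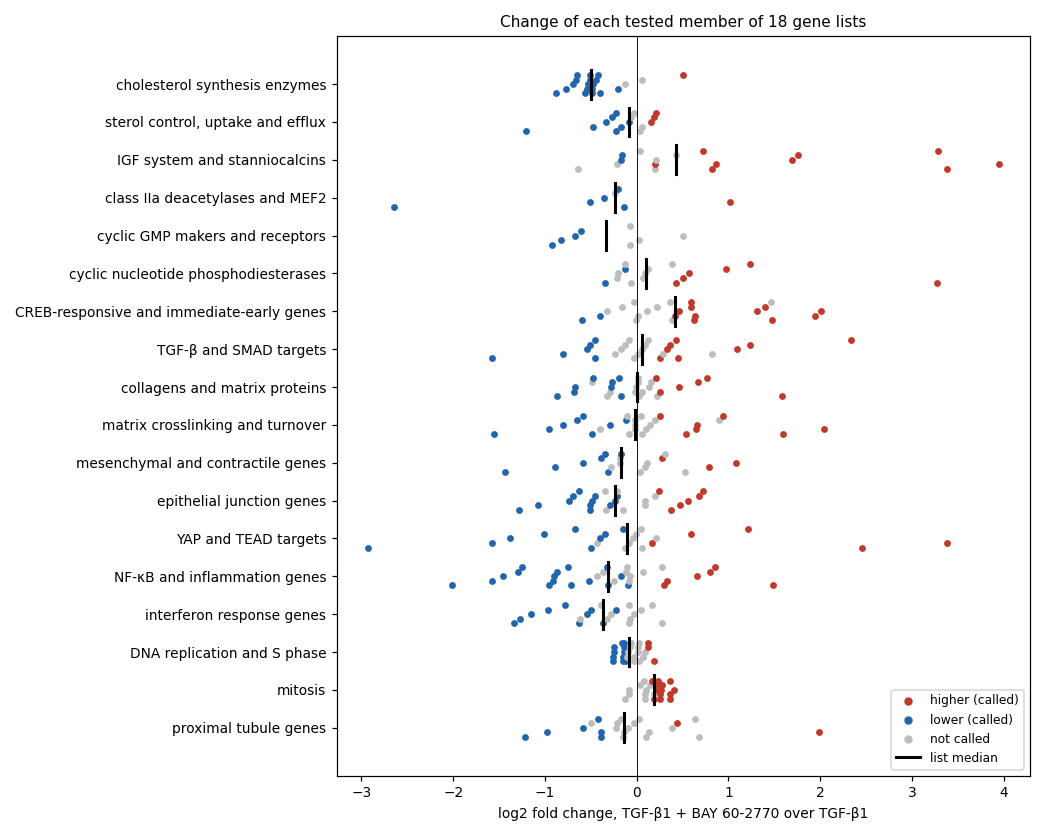
Log2 fold change, TGF-β1 + BAY over TGF-β1 (x axis), of every tested member (points) of 18 gene lists (rows), with the list median as a black line; red and blue points were called higher and lower. Cholesterol synthesis enzymes lie mostly to the left of 0 (median -0.50) and mitosis genes in a narrow band mostly to the right (median 0.19). Most other lists spread to both sides.

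The same compound was tested without TGF-β1 in libraries that the comparison above does not share. The mitochondrial share was 7.39% ± 0.052 with BAY (n = 3) and 7.29% ± 0.174 with solvent (n = 5), above both TGF-β1 groups, and its part in the differences below was not tested. The 3 BAY libraries could not be placed in a subset, while the solvent libraries held both. Counts and differences below that use BAY against solvent may therefore hold a part of the subset split, which cannot be told apart. BAY against solvent in normoxia called 8925 of 21639 genes (41.2%), 3652 higher (16.9%) and 5273 lower (24.4%). Called in both settings were 4299 genes, of which 3801 changed in the same direction, 59.5% of the genes called with TGF-β1 and 42.6% of those called without it. Over 12675 genes of at least 5 CPM the log2 fold changes with and without TGF-β1 had a Pearson correlation of 0.50, and over all tested genes it was 0.322 (Spearman 0.408); both are across genes, which are not independent replicates. The median absolute log2 fold change was 0.16 with TGF-β1 and 0.25 without. The difference between the effects of BAY with and without TGF-β1 was called for 4487 genes (20.7%), 2956 of them more positive with TGF-β1 (13.7%) and 1531 less positive (7.08%).

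For IGFBP3, HMGCS1 and HDAC9 the difference was not called: the log2 fold changes were 3.39 with and 3.20 without TGF-β1 for IGFBP3, -0.88 and -0.80 for HMGCS1, and -2.65 and -2.29 for HDAC9, with interaction estimates of 0.18 ± 0.14, -0.09 ± 0.05 and -0.36 ± 0.21. On the log2 scale STC1 rose less with TGF-β1 present, by 3.94 against 5.69 without (adjusted p of the difference 0.0077). For STC1 the level without BAY differed: it averaged 1.65 CPM with TGF-β1 and 0.0331 CPM with solvent. The solvent level rests on few reads, so the size of the STC1 change without TGF-β1 is imprecise. IL11 likewise rose by 2.34 with TGF-β1 and 4.80 without (difference -2.46, adjusted p = 6.86e-12), at 312 CPM with TGF-β1 and 2.73 CPM with solvent. The calcium channel gene CACNA1H rose by 1.00 and 4.05, and the chondroitin synthesis gene CSGALNACT1 by 1.34 and 3.24. ANKRD1 fell by 2.92 with TGF-β1 and by 5.06 without. CHL1 rose more with TGF-β1, by 7.63 against 3.34.

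Among cholesterol synthesis enzymes, 13 of 20 fell without TGF-β1 (median -0.26, against -0.50 with TGF-β1). The difference was called for 8 of the 20, more negative with TGF-β1 for 7 and more positive for 1. Over all tested genes it was less positive for 7.08% and more positive for 13.7%. MVD, IDI1, LSS, TM7SF2, HSD17B7 and SC5D were among those more negative with TGF-β1. YAP and TEAD targets had medians of -0.10 with TGF-β1 and -0.92 without, and the difference was more positive for 12 of 22 and less for 1. For NF-κB and inflammation genes the medians were -0.32 and -1.17, with 17 of 31 more positive and 1 less. CREB-responsive genes had medians of 0.41 and 0.03, with 6 more positive and 4 less. STC2 fell by 2.00 without TGF-β1, where the log2 fold change with it was 0.04.

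**Figure D5:**
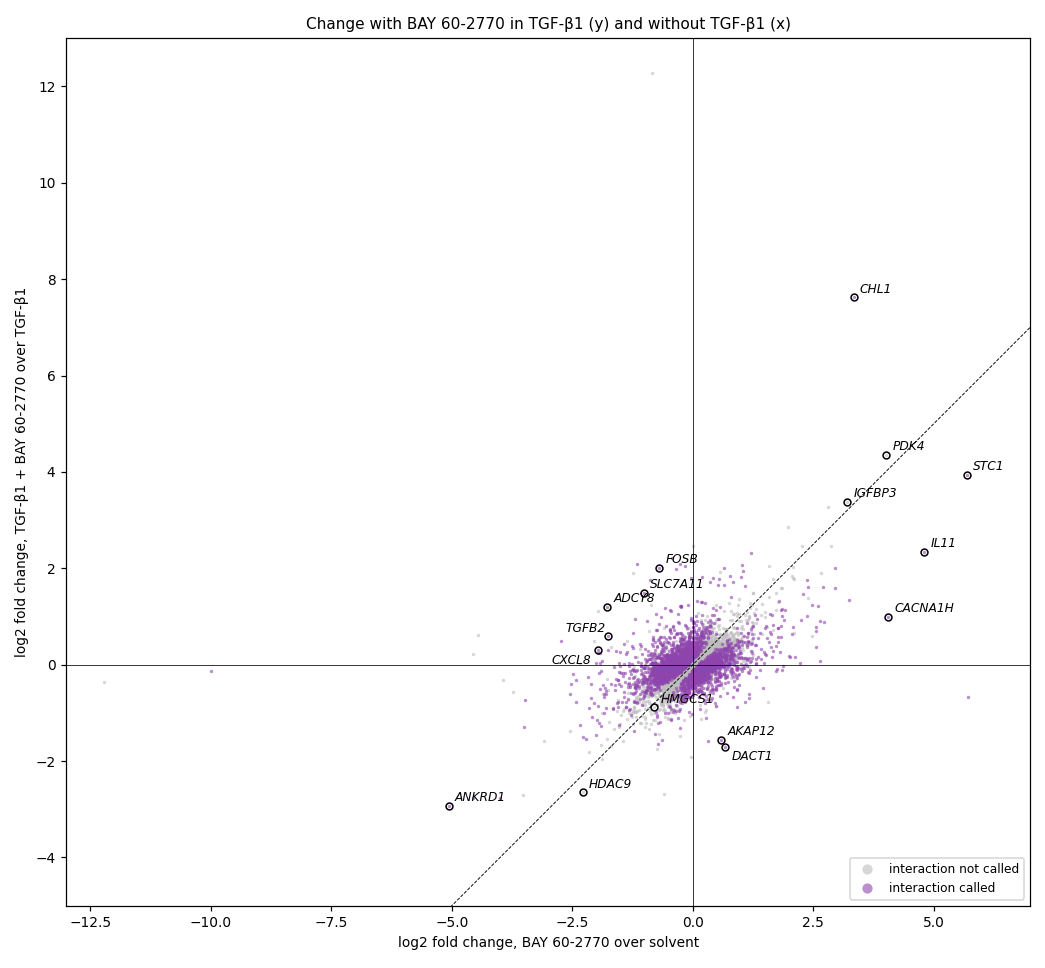
Each point is a gene of at least 5 CPM in a normoxic group; the y axis is the log2 fold change of TGF-β1 + BAY over TGF-β1 and the x axis that of BAY over solvent. Purple genes have a called difference between the effects; IGFBP3, HMGCS1 and HDAC9 lie near the dashed line of equality, IL11, STC1 and CACNA1H below it on the right, and ADCY8, TGFB2 and SLC7A11 at the upper left, where BAY acted in opposite directions.

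Both effects were called but in opposite directions for 498 genes, 322 higher and 176 lower with TGF-β1. The genes given here are some of those with large changes on both sides. They were chosen after their values were seen and are not the top of a ranking. ADCY8, an adenylate cyclase, averaged 31.8 CPM with TGF-β1 + BAY and 13.8 CPM with TGF-β1, and 0.888 CPM with BAY and 3.04 CPM with solvent (log2 1.20 and -1.77). SLC7A11 changed by 1.50 with TGF-β1 and -1.02 without, and TGFB2 by 0.59 and -1.75. TNFRSF21, a death receptor, changed by 0.94 and -1.20, the integrin activator FERMT1 by 0.91 and -0.96, the ERBB ligand NRG1 by 1.06 and -0.77, the Eph receptor ligand EFNB2 by 1.00 and -0.65, BMP2 by 0.84 and -0.69 and IRS1 by 0.73 and -0.77. In the other direction AKAP12 changed by -1.56 with TGF-β1 and 0.59 without, DACT1 by -1.70 and 0.67, and the sterol hydroxylase gene CYP27A1 by -0.60 and 1.17.

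BAY against solvent in hypoxia gave another set of libraries (8087 of 21316 genes called, 37.9%). Of 2940 genes higher with TGF-β1 and tested in both fits, 1394 (47.4%) were also higher in hypoxia and 997 (33.9%) were higher in all 3 settings. Of 3349 genes lower with TGF-β1, 1905 (56.9%) were also lower in hypoxia and 1618 (48.3%) were lower in all 3. The shared calls were 41% of the 8048 hypoxia calls in both fits, and 524 genes were called in opposite directions. Ranked by the smallest of the 3 log2 fold changes, a ranking made after the values were seen, the genes higher in all 3 began with CHL1, CCN5, IL11, IGFN1 and IGFBP3, with smallest values from 3.34 to 2.18, followed by the glutamine transporter gene SLC38A3 (2.00) and PAPPA (1.75). VGF, P4HA3, STC1, CREM and PDK4 were among the first 20. The genes lower in all 3 began with ANKRD1 (-2.75), MEGF10 (-1.82), HDAC9 (-1.78), IL4I1 (-1.51), IL32 (-1.46) and BIRC3 (-1.44). CCND2, cyclin D2, chosen after its values were seen, fell by 1.14 with TGF-β1, by 1.98 in normoxia without it and by 1.25 in hypoxia. Of the 12 largest rises with TGF-β1, 8 were also called higher in normoxia without it and 2 were called lower; of the 12 largest falls, 9 were called lower there and 3 higher.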

How the data were processed

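Poly(A) RNA of HK-2 cultures was sequenced, and the values the authors deposited are estimated counts for every gene in each of 24 libraries. Salmon, DESeq2 and the builds GRCh38 and hg38 are named without versions, per the submitters' processing notes, and neither annotation release nor strand setting is stated there or in the labels. Gene names and positions were taken from GENCODE 29, and promoter windows from RefSeq.

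Of the table's values above 0, 48.6% were not whole, so the estimated counts were rounded to whole numbers. The 18 normoxic libraries were fitted together in edgeR 4.0.16 (R 4.3.3) with TMM scaling, its filter on low counts and the robust quasi-likelihood test, which is 2-sided, and p-values were adjusted by Benjamini-Hochberg over all 21639 genes tested. Genes at an adjusted p below 0.05 were called. The hypoxia values came from a fit of 14 libraries. SEs are approximate, the absolute log2 fold change over the square root of F. CPM values are scaled to the TMM-adjusted library size.

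The genes named were the 4 markers IGFBP3, STC1, HMGCS1 and HDAC9, the 12 largest changes and 5 smallest p-values in each direction without overlap between groups at 5 CPM or more, up to 3 called members of each of 35 gene lists with all members of 7 of them, and 6 interactions in each direction. Some of these genes are not reported here. Genes outside this rule are said to be chosen after their values were seen. The members and lists were chosen with earlier results of these data known. DESeq2 1.42.0, limma 3.58.1 voom, other scaling, no filter, fewer libraries, a replicate block and leaving out each library were tried as alternatives, and the subset analyses were added after the data were seen. Replicate numbers come from the labels. Deviations of libraries with the same number correlated at 0.682, 0.677, 0.573, 0.475 and 0.383, all above 0.1, so the numbers were taken to pair the libraries. For 4 of the 5 numbers the best correlated partner carried another number of the same subset, so these correlations follow the subsets at least in part. The procedure was tested on simulated data. Those counts were drawn independently for each library, without the subsets seen here, so the simulation does not cover that split.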

Additional observations from a re-analysis of the deposited data

Results flagged for a closer look

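Of 217 named genes, 104 had a called difference between the effect of BAY with TGF-β1 and its effect without it, and 48 of those with a difference of at least 2-fold are given here (edgeR interaction test). The values below are this difference on the log2 scale, the effect with TGF-β1 minus the effect without. It was more positive with TGF-β1 for 34 of these genes. At more than 2 on this scale these were CHL1 (4.29), BMP6 (3.55), CEMIP (3.25), ADCY8 (2.98), FOSB (2.71), CNGB1 (2.65), ANOS1 (2.65), SLC7A11 (2.51), SCNN1G (2.42), BEAN1 (2.36), TGFB2 (2.34), CSF2 (2.33), CXCL8 (2.27), MMP10 (2.21), TNFRSF21 (2.14), ANKRD1 (2.14) and STC2 (2.04). The smaller ones were PLK2 (1.95), FERMT1 (1.87), NRG1 (1.82), EFNB2 (1.65), LRRC32 (1.63), INHBA (1.61), FAS (1.56), BMP2 (1.53), IRS1 (1.49), TNC (1.43), ACTA2 (1.26), SMAD7 (1.21), PDGFRB (1.10), THBS2 (1.09), ABCA1 (1.09), PDE5A (1.07) and CYP24A1 (1.04). BMP6, CSF2 and CNGB1 stood below 1 CPM in all 4 normoxic groups, so their values rest on few reads. Other genes were near 0 in some of the groups, so their differences are imprecise as well. Examples are BEAN1 (0.0635 CPM with BAY and 0.077 CPM with solvent), CEMIP (0.231 and 0.521 CPM in the same order) and CHL1 (0.0305 CPM with TGF-β1).

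The difference was less positive with TGF-β1 for 14, BAMBI (-1.02), VGF (-1.10), KRT7 (-1.37), DCN (-1.37), STC1 (-1.75), CYP27A1 (-1.77), NR4A3 (-1.89), SLCO4C1 (-1.89), CSGALNACT1 (-1.90), STARD13 (-1.95), AKAP12 (-2.15), DACT1 (-2.38), IL11 (-2.46) and CACNA1H (-3.06). The solvent level of STC1 was very low, as given above, so its difference is imprecise as well. STARD13, a GTPase-activating protein, averaged 9.87 CPM with TGF-β1 + BAY and 13.8 CPM with TGF-β1, and 26.5 CPM with BAY and 9.61 CPM with solvent. In 78 groups of 5 libraries, over library totals, mitochondrial shares and the main named genes, no library passed the critical value of Dixon's test. That test looks for 1 library far from the rest. Libraries that stand apart together, as in the subsets here, mask each other, so the test cannot show that the libraries were alike.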

How the results depend on the processing

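The number of genes called for TGF-β1 + BAY against TGF-β1 was 6386, and it was 6775 with DESeq2, 6330 with limma voom, 6348 with RLE scaling, 5338 with no filter on low counts, 5940 with only the libraries compared, and 7193 with the replicate number as a block for paired libraries. Leaving out 1 library at a time gave 5724 to 6132 calls, with 2690 to 3008 higher, 2969 to 3244 lower and 581 to 625 at least 2-fold. The same step gave 7417 to 9008 calls for BAY against solvent and 3587 to 4717 for the difference between the effects. The block changed the call of 4 named genes: CNGA1 was lost (0.36, adjusted p = 0.056), and PDE4D, IGFBP7 and IRS2 were gained (0.38, 0.21 and 0.42, adjusted p = 0.0332, 0.0157 and 0.00152). The block changed no other call among the 217 named genes. A term for the subset, chosen after seeing the data like both subset analyses, gave 7729 calls. Both subset fits kept all 3 BAY libraries without TGF-β1, which could not be placed in a subset. The difference between the effects is therefore not a result within 1 subset. It was called for 7100 genes in the first subset fit and 5142 in the second, against 4487 over all libraries. BAY against solvent was called for 11764 and 8817 genes in these fits, against 8925 over all libraries. The cause was not tested. Of 182 named genes called, 156 were called in every alternative, among them IGFBP3 (3.32 to 3.46), STC1 (3.54 to 4.32), HMGCS1 (-0.96 to -0.84) and HDAC9 (-2.76 to -2.57). PDE8B, not called at -0.20, ranged from -0.60 to 2.74 when 1 library was left out, the highest without TGF-β1 replicate 2 (adjusted p = 0.0208), and SMAD3, not called over all libraries, was -0.0846 in the first subset alone (adjusted p = 0.0498); the cause was not tested for either. Only the lowest genes are limited by depth, such as CHL1 and IGFBP5 with TGF-β1.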

Other observations

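Among the genes that BAY changed in the same direction with TGF-β1, in normoxia and in hypoxia were several secreted or surface proteins outside the gene lists, chosen after their values were seen. TFPI2, a secreted inhibitor of serine proteases, averaged 4010 CPM with TGF-β1 + BAY and 1430 CPM with TGF-β1, and its log2 fold changes were 1.49 with TGF-β1, 1.72 in normoxia and 1.82 in hypoxia. SCG2, a secretory granule protein, averaged 17.3 CPM with TGF-β1 + BAY and 5.63 CPM with TGF-β1 (1.62, 2.40 and 2.16 in the 3 settings). FPR1, a formyl peptide receptor, averaged 16.4 and 4.58 CPM in the same order of groups (1.84, 2.07 and 1.52). The glutamate receptor gene GRIK2 averaged 105 CPM with TGF-β1 + BAY and 42.1 CPM with TGF-β1 (1.32, 1.80 and 1.81).

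Lower in all 3 settings were MICAL2, an actin-oxidising enzyme, at 47.1 CPM with TGF-β1 + BAY and 99.7 CPM with TGF-β1 (-1.08, -2.08 and -1.28), and FRMD6, a regulator of the Hippo pathway, at 92.2 and 189 CPM (-1.03, -1.29 and -1.02). The cytidine deaminase gene APOBEC3B averaged 17.4 CPM with TGF-β1 + BAY and 37.8 CPM with TGF-β1 (-1.12, -1.0 and -1.05).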
